A study of Gallus gallus with 6 samples.

Results

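RNA-binding regulators of lens mRNA were examined in the RNA-sequencing data of embryonic day 13 (E13) chick lenses. The group holds 10 genes: TDRD7, RBM24, CELF1, CAPRIN1, CAPRIN2, YBX1, CPEB3, PABPC1, MSI2 and IGF2BP3. They were chosen with earlier results of these data known, so counts over the group describe these genes only. Each was found by its gene symbol and matched 1 entry, giving 10 of the 16561 entries of the deposited expression table. White Leghorn embryos at E13 supplied all samples, with no treatment named in the labels. Lenses were microdissected into lens epithelial cells, the undifferentiated anterior layer taken with its central and equatorial parts, and lens fiber cells, the differentiated core taken with its peripheral and central parts. Each of the 3 libraries per cell type came from a pool of lenses, so that the spread between libraries is a spread between pools and not between embryos. Expression was given as FPKM, which divides the fragments of a gene by its length and by the size of the library.

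Fiber cells elongate, stop dividing, fill with crystallins and finally lose their nuclei, so that their late protein output rests on mRNA made earlier. RNA-binding proteins decide how long such mRNA lasts, where it sits and how often it is translated. Several of the genes studied here are known from eye disease or eye development. TDRD7, a Tudor-domain protein of RNA granules, is mutated in human congenital cataract. RBM24, CELF1 and CAPRIN2 are needed for normal eye or lens development in the mouse, and RBM24 and CELF1 in zebrafish too. YBX1 packages cytoplasmic mRNA, and PABPC1 binds the poly(A) tail.

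Fiber cells held more mRNA of 7 of the 10 regulators and less of 1. RBM24 rose most, with 4.19 times its epithelial FPKM, followed by CAPRIN2, YBX1, TDRD7, CPEB3, CAPRIN1 and PABPC1, and MSI2 fell to 0.364 times its epithelial FPKM. CELF1 and IGF2BP3 did not pass the test. A gene was called changed where limma, run on log2(FPKM + 0.1), gave a Benjamini-Hochberg adjusted p under 0.05 and the log2 fold change exceeded 0.4 in size. The test covered 10818 entries averaging 0.5 FPKM or more over the 6 libraries, all 10 regulators among them. The fiber libraries lay above all epithelial libraries for 7 regulators and below them for 2, and among all tested entries this held for 16.1% and 63.6%, or 79.7% in either direction. Of all tested entries, 13.1% were called higher in fiber cells and 57.7% lower. The median log2 fold change of the 10 regulators was 0.99, beside −0.62 for all tested entries.

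Because the median gene lay at −0.62, a second value is given for each change, relative to the median gene, after the median of every library was subtracted. On that scale 30.2% of the tested entries were called higher and 29.3% lower, and 8 of the 10 regulators were called higher and 1 lower. The added higher call was that of CELF1 (0.49), whose value is shared with PSMC3 and RAPSN and cannot be assigned to it alone. FPKM are shares of a library, and in bulk samples a smaller number of cells of a type and less RNA per cell cannot be told apart. The 10 regulators together took 0.718% to 0.956% of the summed FPKM in epithelial libraries and 1.73% to 2.05% in fiber libraries. YBX1 alone took 0.271% to 0.462% and 0.828% to 1.15%, and neither share overlapped between the cell types.

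**Figure D1:**
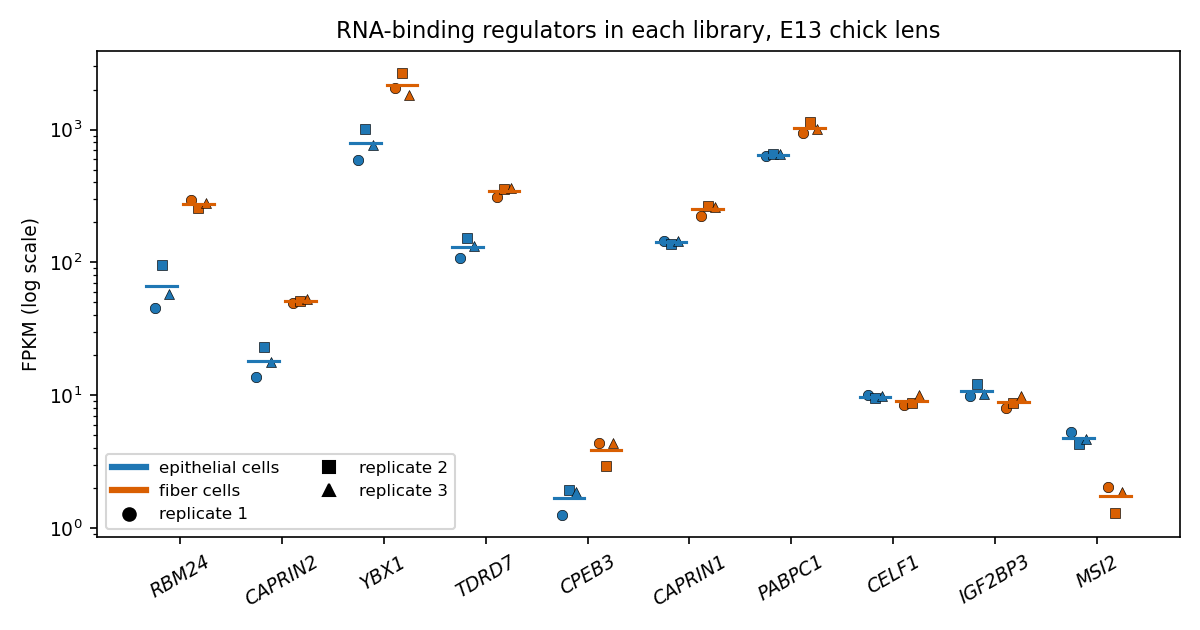
FPKM (log axis) of the 10 RNA-binding regulators in the 3 epithelial (blue) and 3 fiber (orange) libraries, with symbols for the replicate and a line at the mean of each cell type, ordered by log2 fold change. The fiber libraries sit above the epithelial libraries for 7 genes and below them for MSI2 and IGF2BP3, while those of CELF1 overlap.

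The labels of the cell types were checked against known markers. The 4 matched markers of the epithelium (GJA1, PDGFRA, PAX6 and CDH1) summed to 318 to 373 FPKM in epithelial and 49.9 to 76.6 FPKM in fiber libraries. The 7 matched fiber markers, among them BFSP1, BFSP2, MIP, CRYGN, CRYBB1 and GJA3, summed to 1557, 2804 and 2298 FPKM in epithelial replicates 1, 2 and 3, and to 10623 to 11677 FPKM in the fiber libraries. Markers of other cells were low in sum, and several were called in opposite directions. Erythrocyte genes summed to 1.68 to 2.13 FPKM in epithelial libraries, mostly EPB42 (called lower in fiber cells, mean 1.77 to 0.569 FPKM), and to 8.73 to 14.8 FPKM in fiber libraries, mostly the hemoglobins HBZ and HBA1 (called higher, means 0.0259 to 6.51 and 0.0531 to 4.28 FPKM). Corneal and connective tissue genes summed to 6.62 to 7.86 and 6.70 to 7.65 FPKM, with DCN called higher (mean 2.32 to 5.65 FPKM) and KERA lower (3.59 to 1.01 FPKM). Immune genes summed to 5.10 to 5.84 and 4.67 to 5.27 FPKM, with CD3E called higher (mean 0.0725 to 2.55 FPKM) and CD74 lower (4.89 to 2.11 FPKM). Pigment cell genes reached 3.71 to 6.28 and 1.77 to 3.25 FPKM, with SLC45A2 called lower, skeletal muscle genes 1.27 to 1.56 and 0.739 to 1.25 FPKM, with ACTA1 called lower, and neural retina genes 0.319 to 0.553 and 0.0153 to 0.235 FPKM, and MYOG and POU4F2 were listed at the floor of 0.0001 FPKM in all 6 libraries. Their part in the changes described here was not tested.

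The order of abundance differed between the cell types. In epithelial cells the mean levels ran from YBX1 and PABPC1 through CAPRIN1, TDRD7, RBM24, CAPRIN2, IGF2BP3, CELF1 and MSI2 to CPEB3. Of the 9 neighbouring pairs in that order, the libraries of YBX1 and PABPC1, of CAPRIN1 and TDRD7 and of IGF2BP3 and CELF1 overlapped. In fiber cells TDRD7 and RBM24 stood ahead of CAPRIN1, CELF1 stood ahead of IGF2BP3, and MSI2 came last. There, RBM24 overlapped with CAPRIN1 and CELF1 with IGF2BP3. By mean FPKM among all entries, YBX1 ranked 27 in epithelial and 12 in fiber cells, PABPC1 39 and 20, TDRD7 164 and 56, and RBM24 300 and 73. These levels are per length of transcript and can be set beside each other within a cell type.

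TDRD7 (ENSGALG00000012350) encodes a Tudor-domain protein that sits in cytoplasmic RNA granules of fiber cells. Its level was 108, 152 and 134 FPKM in epithelial replicates 1, 2 and 3 and 311, 356 and 361 FPKM in fiber replicates 1, 2 and 3. Every fiber library lay above every epithelial library, with the lowest of the 6 in epithelial replicate 1. TDRD7 thus had a log2 fold change of 1.40 (standard error, SE, 0.14, limma adjusted p = 4.28e-05), or 2.003 relative to the median gene. As in the other genes whose libraries did not overlap, the two-sided exact permutation p was 0.1, the smallest that 3 against 3 libraries can give.
The other Tudor and germ granule genes were mostly silent. Of 14 listed genes, TDRD7 included, 12 were found and 3 were tested. TDRD1, TDRD6 and TDRD15 stayed below 0.13 FPKM in each library, and TDRD5 was listed at the floor in 5 of the 6. TDRD3, a Tudor-domain scaffold protein, had a mean of 9.58 FPKM in epithelial and 12.16 FPKM in fiber cells. Its log2 fold change of 0.33 missed the fold threshold and was called higher relative to the median gene (0.94). PIWIL1, a PIWI protein of the germ line, fell from a mean of 2.98 to 0.950 FPKM (log2 fold change −1.62, limma adjusted p = 0.000678).

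RBM24 (ENSGALG00000012712) encodes a protein with an RNA-recognition motif that binds mRNA and, in the mouse eye, SOX2 mRNA. It was measured at 45.7, 95.1 and 57.9 FPKM in epithelial replicates 1, 2 and 3 and at 293, 257 and 282 FPKM in fiber replicates 1, 2 and 3. The fiber libraries were close to each other, whereas epithelial replicate 2 stood well above the other epithelial libraries. The log2 fold change was 2.13 (SE 0.23, limma adjusted p = 8.18e-05), the largest of the 10, and 2.74 relative to the median gene. Without epithelial replicate 2 it was 2.43. RBM38, its closest relative, was at a mean of 12.7 FPKM in epithelial and 76.0 FPKM in fiber cells, a log2 fold change of 2.56 (limma adjusted p = 1.04e-06).
RBM24 was the more abundant of the pair in every library. Its log2 ratio to RBM38 within a library averaged 2.30 ± 0.48 (SD, n = 3) in epithelial and 1.87 ± 0.24 (SD, n = 3) in fiber cells. The difference of −0.43 (SE 0.31) did not separate the cell types in a two-sided exact permutation test (p = 0.3, 0.343 adjusted over the 8 paralog pairs tested), and the direction was the same with each library left out (−0.62 to −0.16).

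CAPRIN1 (ENSGALG00000013532) and CAPRIN2 (ENSGALG00000012947) encode cytoplasmic RNA-granule proteins. CAPRIN1 is a partner of the stress granule protein G3BP1, and CAPRIN2 is known for its role in lens fiber differentiation in the mouse. CAPRIN1 was at 145, 139 and 144 FPKM in epithelial replicates 1, 2 and 3 and at 225, 266 and 259.9 FPKM in fiber replicates 1, 2 and 3. CAPRIN2 was at 13.8, 23.0 and 17.7 FPKM in epithelial replicates 1, 2 and 3 and at 49.0, 51.4 and 52.6 FPKM in fiber replicates 1, 2 and 3. For both genes every fiber library lay above every epithelial library, and the epithelial libraries of CAPRIN1 were close to each other. Log2 fold changes were 0.81 (SE 0.09, limma adjusted p = 8.61e-05) for CAPRIN1 and 1.51 (SE 0.17, limma adjusted p = 8.08e-05) for CAPRIN2, or 1.42 and 2.12 relative to the median gene.
The FPKM of CAPRIN2 was 0.128 times that of CAPRIN1 in epithelial cells and 0.204 times in fiber cells. The within-library log2 ratio differed by 0.70 (SE 0.24), with the 3 fiber libraries above the 3 epithelial ones (two-sided exact permutation p = 0.1, 0.133 adjusted over 8 pairs), and by 0.51 without epithelial replicate 1 and 0.91 without epithelial replicate 2. The caprins were the 2 genes called higher among the 13 tested of the stress granule list, where 7 were called lower and the median change was −0.52 (log2). Over all tested entries 13.1% were called higher and 57.7% lower, with a median of −0.62. Relative to the median gene 4 of the 13 were called higher and all 7 lower calls were lost. Shares of all tested entries were then 30.2% higher and 29.3% lower. G3BP1, the core stress granule protein, was at a mean of 76.6 FPKM in epithelial and 99.7 FPKM in fiber cells. The G3BP1 change was 0.38 (log2), below the fold threshold, and of 0.99 (called) relative to the median gene. UBAP2, NUFIP2 and FMR1 were among these 7, with log2 fold changes of −1.30, −0.91 and −0.91, and the values of FMR1 are identical to those of an unnamed entry.

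**Figure D2:**
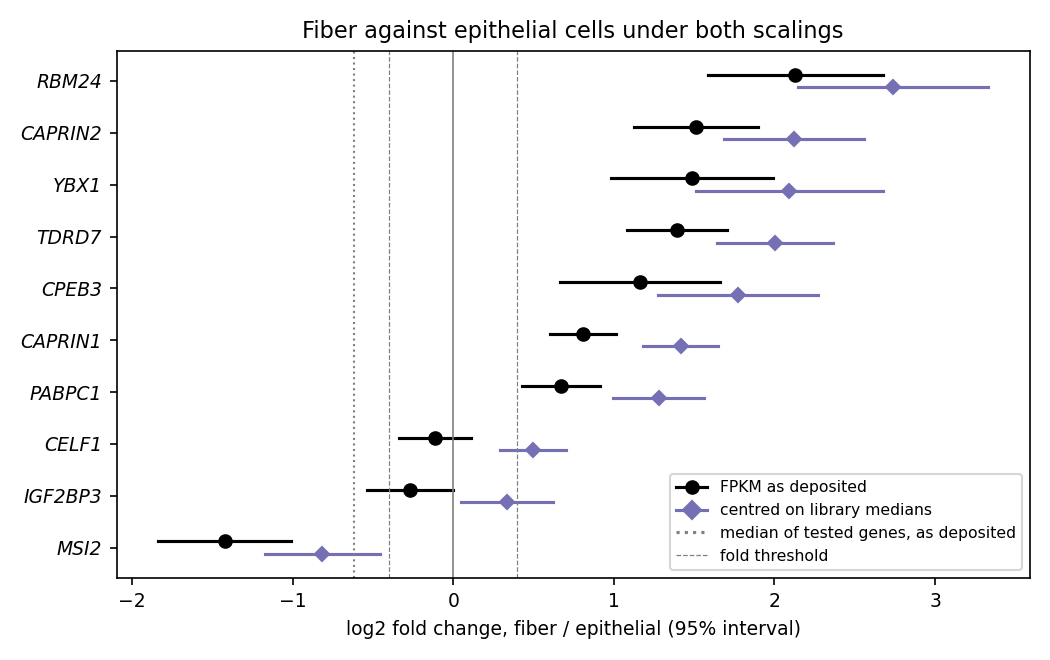
Log2 fold change of fiber against epithelial cells with its 95% interval for the 10 regulators, from FPKM as deposited (black circles) and from values centred on the library medians (purple diamonds). The solid line marks 0, dashed lines the fold threshold of 0.4 and the dotted line the median of all tested genes at −0.62. CELF1 and IGF2BP3 sit on opposite sides of 0 under the 2 scalings.

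YBX1 (ENSGALG00000004848) encodes a cold shock domain protein that coats cytoplasmic mRNA. It was the most abundant of the 10 on average, with 590.4, 1016 and 765 FPKM in epithelial replicates 1, 2 and 3 and 2049, 2676 and 1837 FPKM in fiber replicates 1, 2 and 3. The libraries of the cell types did not overlap, though the spread was wide in both. YBX1 changed by a log2 fold of 1.49 (SE 0.22, limma adjusted p = 0.000389), or 2.09 relative to the median gene.
YBX3, the second Y-box protein, rose with it from a mean of 287 to 926 FPKM (log2 fold change 1.69). The ratio of YBX1 to YBX3 was 2.76 in epithelial and 2.36 in fiber cells, and the within-library log2 ratio differed by −0.21 (SE 0.23, two-sided exact permutation p = 0.5, 0.5 adjusted over 8 pairs). All 4 tested members of the cold shock domain list were called higher under both scalings, beside 13.1% and 30.2% of all tested entries. They included CARHSP1, with a log2 fold change of 1.77, whose values are identical to those of TMEM186 so that the 2 genes cannot be separated. LIN28A and LIN28B stayed below 0.32 FPKM in each library.

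In epithelial cells, the 4 genes with the widest relative spread among those that rose (RBM24, YBX1, CAPRIN2 and CPEB3, with coefficients of variation of 38.8%, 27.1%, 25.4% and 22.5%) were all lowest in epithelial replicate 1. For RBM24, YBX1, CAPRIN2, CPEB3 and TDRD7 the order was replicate 1, then 3, then 2. CAPRIN1, lowest in replicate 2, and PABPC1, highest in replicate 3, did not hold it. Among the regulators that did not rise, IGF2BP3 held it, whereas MSI2 and the shared CELF1 value ran in the reverse order. How many of all tested entries held that order was not counted. The summed fiber markers given above also followed the order 1, 3, 2. The part of these markers in the epithelial levels was not tested. Without epithelial replicate 2, the log2 fold changes of YBX1, CAPRIN2 and TDRD7 were 1.68, 1.70 and 1.51, and without epithelial replicate 1 they were 1.29, 1.33 and 1.26.

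CPEB3 (ENSGALG00000006912) encodes a member of the family of cytoplasmic polyadenylation element-binding proteins and, in mouse neurons, can hold back translation. It was the least abundant regulator in epithelial cells, with 1.24, 1.93 and 1.86 FPKM in replicates 1, 2 and 3, and reached 4.34, 2.94 and 4.35 FPKM in fiber replicates 1, 2 and 3. All fiber libraries were higher, replicate 2 by the smallest margin. CPEB3 changed by a log2 fold of 1.17 (SE 0.22, limma adjusted p = 0.00135), or 1.77 relative to the median gene.
CPEB1, the founding member of the family, rose from a mean of 4.35 to 10.2 FPKM (log2 fold change 1.22), with values identical to those of AP3B2 so that the 2 genes cannot be separated. CPEB4 was at 7.48 and 6.75 FPKM, with a log2 fold change of −0.15 that became 0.46 (called) relative to the median gene. CPEB2 was called lower (−0.60) and was at 0.01 relative to the median gene. The log2 ratio of CPEB3 to CPEB4 within a library was higher in fiber cells by 1.31 (SE 0.28, two-sided exact permutation p = 0.1, 0.133 adjusted over 8 pairs). Of the 11 tested genes of cytoplasmic polyadenylation and 3′ end handling, 3 were called higher and 7 lower, or 4 and 2 relative to the median gene. Shares of all tested entries were 13.1% and 57.7%, or 30.2% and 29.3% relative to the median gene. CPSF3 was the third gene of the list called higher (0.45), shared its values with IAH1, and lost the call without epithelial replicate 3 (0.40, just under the fold threshold). PUM2, a repressor that binds 3′ untranslated regions and shares its values with an unnamed entry, was called lower (−1.81), as was the poly(A) polymerase TENT4B (−1.41), both also relative to the median gene. PAPD4, a cytoplasmic poly(A) polymerase, was called lower (−0.98) only as deposited, with −0.37 relative to the median gene.

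PABPC1 (ENSGALG00000030280), the main cytoplasmic poly(A)-binding protein, was at 635, 650.4 and 654 FPKM in epithelial replicates 1, 2 and 3 and at 939, 1143 and 1014.5 FPKM in fiber replicates 1, 2 and 3. The epithelial libraries were nearly level and all fiber libraries lay above them. This gave a log2 fold change of 0.67 (SE 0.10, limma adjusted p = 0.000544), or 1.28 relative to the median gene.
The paralogs of PABPC1 were scarce. PABPC4 had a mean of 3.21 FPKM in epithelial and 2.21 FPKM in fiber cells. The change of PABPC4 was −0.52 on the log2 scale (called) and became 0.09 relative to the median gene. PABPC1 exceeded it 201-fold in epithelial and 467-fold in fiber cells, a within-library log2 ratio that differed by 1.19 (SE 0.14, two-sided exact permutation p = 0.1, 0.133 adjusted over 8 pairs). PABPC1L, at means of only 0.934 FPKM in epithelial and 0.311 FPKM in fiber cells, was called lower (−1.40). Its change was −0.57 with 1 FPKM added in place of 0.1, and −0.79 relative to the median gene, called under each. Of the 13 tested poly(A)-binding proteins and partners, 2 were called higher and 5 lower, or 6 and 2 relative to the median gene. Shares of all tested entries were 13.1% and 57.7%, or 30.2% and 29.3% relative to the median gene. EIF4EBP2, an inhibitor of the cap-binding protein EIF4E, rose from 15.5 to 23.2 FPKM (log2 fold change 0.57). LARP1, which binds the mRNA of ribosomal proteins, fell from 26.0 to 6.98 FPKM (−1.89) and remained called lower relative to the median gene (−1.28). PAIP1, a partner of PABPC1, was called lower (−0.62) and was at −0.01 relative to the median gene.

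MSI2 (ENSGALG00000005567), a Musashi protein known as a translation regulator of progenitor cells, was the only regulator of the 10 called lower. It was at 5.31, 4.26 and 4.64 FPKM in epithelial replicates 1, 2 and 3 and at 2.03, 1.30 and 1.85 FPKM in fiber replicates 1, 2 and 3. Each fiber library was below each epithelial library. This gave a log2 fold change of −1.42 (SE 0.18, limma adjusted p = 0.000162), or −0.82 relative to the median gene (limma adjusted p = 0.00231).
MSI1 fell with it, from a mean of 17.6 to 7.87 FPKM (log2 fold change −1.15, or −0.54 relative to the median gene, called on both scales), and was the more abundant Musashi in both cell types. The log2 ratio of MSI2 to MSI1 within a library was lower in fiber cells by a small amount (−0.28, SE 0.14, two-sided exact permutation p = 0.1, 0.133 adjusted over 8 pairs), and it was −0.02 with 1 FPKM added in place of 0.1.

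IGF2BP3 (ENSGALG00000010961), an mRNA-binding protein of embryonic and tumor cells, did not pass the test. It was at 9.90, 12.03 and 10.2 FPKM in epithelial replicates 1, 2 and 3 and at 8.01, 8.71 and 9.88 FPKM in fiber replicates 1, 2 and 3. The fiber libraries were lower, but fiber replicate 3 and epithelial replicate 1 nearly met. The log2 fold change was −0.27 (95% interval −0.54 to −0.0037, limma adjusted p = 0.0611) and turned to 0.34 (0.05 to 0.62, limma adjusted p = 0.0409) relative to the median gene, which was below the fold threshold.
Its paralogs were called lower. IGF2BP1 fell from a mean of 15.0 to 7.71 FPKM (log2 fold change −0.95) and IGF2BP2 from 8.95 to 4.63 FPKM (−0.93), with −0.34 and −0.32, not called, relative to the median gene. In epithelial cells IGF2BP3 stood at 0.713 times the level of IGF2BP1 and in fiber cells at 1.15 times. The log2 ratio within a library was higher by 0.68 in fiber cells (SE 0.17) and the libraries did not overlap (two-sided exact permutation p = 0.1, 0.133 adjusted over 8 pairs). Among the 9 tested genes of the IGF2BP and mRNA transport list, 6 were called lower as deposited, beside 57.7% of all tested entries. Relative to the median gene 1 was called higher and 2 lower, beside 30.2% and 29.3% of all tested entries. Those 2 were KHDRBS1 (−0.90, or −1.50 as deposited) and HNRNPAB (−0.63, or −1.24 as deposited).

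CELF1 (ENSGALG00000008097), which binds GU-rich elements and acts in splicing, decay and translation, could not be measured on its own. Its values in all 6 libraries were identical to those of PSMC3, a proteasome subunit, and RAPSN, a synaptic scaffold gene. In the RefSeq annotation of a later chicken assembly, GRCg7b, RAPSN and PSMC3 are near neighbours of CELF1. The shared value was 9.96, 9.45 and 9.84 FPKM in epithelial replicates 1, 2 and 3 and 8.38, 8.68 and 10.03 FPKM in fiber replicates 1, 2 and 3. The libraries overlapped, with the highest of the 6 in fiber replicate 3. The shared log2 fold change was −0.11 (95% interval −0.34 to 0.11, limma adjusted p = 0.31) and became 0.49 (0.29 to 0.70, called) relative to the median gene. Which of the 3 genes the value follows cannot be told apart.
CELF2 fell from a mean of 4.37 to 1.06 FPKM (log2 fold change −1.99) and CELF5 from 0.988 to 0.255 FPKM (−1.61), both also called lower relative to the median gene. Of the 6 tested CELF and MBNL genes 4 were called lower, or 2 higher and 2 lower relative to the median gene. Shares of all tested entries were 57.7% lower, or 30.2% higher and 29.3% lower relative to the median gene. The log2 ratio of the CELF1 entry to CELF2 differed by 1.88 (SE 0.22, two-sided exact permutation p = 0.1, 0.133 adjusted over 8 pairs), and by 1.29 with 1 FPKM added. The splicing regulator MBNL1 was called lower (−0.68) and was at −0.07 relative to the median gene.

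**Figure D3:**
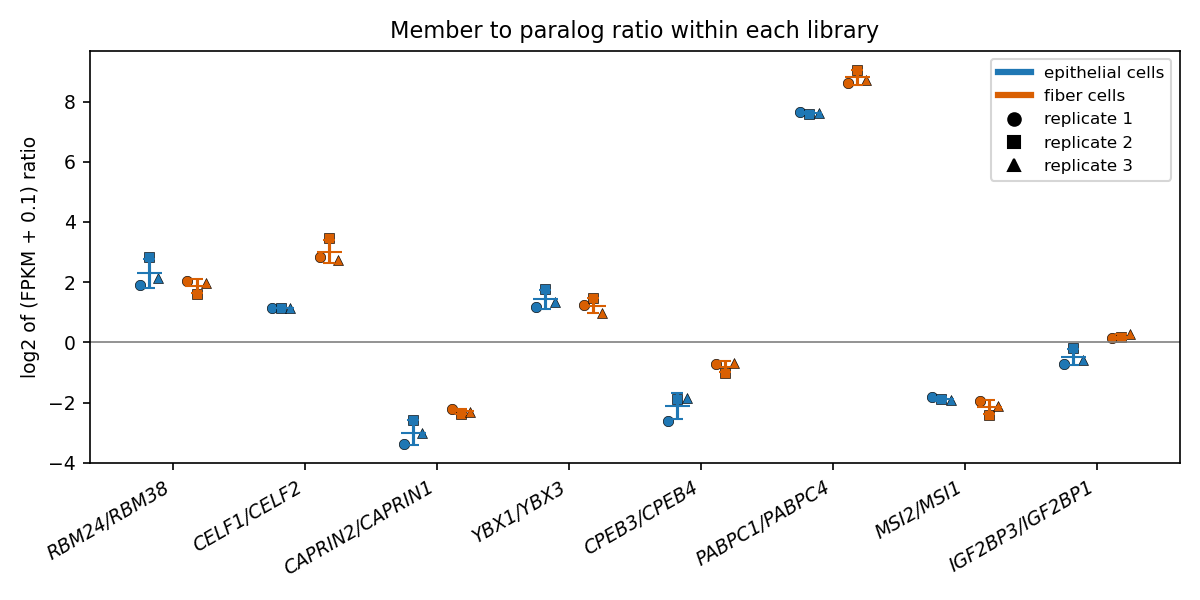
Log2 ratio of (FPKM + 0.1) of a regulator to a paralog within each of the 3 epithelial (blue) and 3 fiber (orange) libraries, with symbols for the replicate and bars for the mean and SD. Such a ratio does not move with median centring, which shifts all log2 values of a library alike. It can move with a scaling that shifts genes unequally, such as quantile normalization. The libraries of the cell types overlap for RBM24/RBM38 and YBX1/YBX3 and are apart for the other 6 pairs, where the CELF1 value is shared with PSMC3 and RAPSN. Among single tested entries 79.7% were apart in either direction, and the share over other gene pairs was not computed.

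The levels of mRNAs reported as partners of these proteins in other species were read beside them. CRYBB3, a β-crystallin whose mRNA is tied to TDRD7 in the mouse, rose from a mean of 1257 to 1948 FPKM (log2 fold change 0.63, limma adjusted p = 0.00138), although the call was lost without the filter on low values (adjusted p = 0.0887) and with quantile normalization (0.36, adjusted p = 0.135). HSPB1, a small heat shock protein also tied to TDRD7, rose from 5.85 to 12.4 FPKM (1.12). SOX2, a transcription factor whose mRNA is bound by RBM24 in the mouse, rose from 3.82 to 8.25 FPKM (1.10).
Of the partners reported for CELF1, PAX6, a transcription factor of the lens lineage, fell from 40.5 to 8.86 FPKM (−2.18). CDKN1B, the cell cycle inhibitor p27, fell from 64.1 to 38.0 FPKM (−0.76) and DNASE2B, the nuclease of fiber nuclear breakdown, from 1.21 to 0.614 FPKM (−0.92). These calls for CDKN1B and DNASE2B were lost relative to the median gene (−0.15 and −0.31). PROX1 was at 20.3 and 21.3 FPKM and called higher only relative to the median gene (0.70), and CDKN1A stayed below 0.15 FPKM in each library.

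Beyond the 10, related genes of mRNA binding, translation and decay were counted. Of 161 listed genes other than the 10, 138 were found and 121 tested, of which 10 were called higher and 72 lower, and the median was −0.63 (log2). Relative to the median gene 31 were called higher and 30 lower. Over all tested entries, the shares were 13.1% higher and 57.7% lower, or 30.2% and 29.3% relative to the median gene, and the difference was not tested.
Binders of AU-rich and other 3′ untranslated elements included the largest decreases. Of 18 tested, 1 was called higher and 11 lower, or 4 and 9 relative to the median gene, and the median change was −1.05 (log2). ZFP36L1, which speeds the decay of AU-rich mRNA, fell from 9.06 ± 1.58 to 0.421 ± 0.397 FPKM (SD, n = 3 each), and was listed at the floor in fiber replicate 2. Its log2 fold change was −4.61, or −4.00 relative to the median gene, with −3.66 without fiber replicate 2 and −5.24 without fiber replicate 3. It also depended on the value added, with −2.85 for 1 FPKM and −5.83 for 0.01 FPKM, and was called lower under each. The poly(C)-binding proteins PCBP3 and PCBP4 followed with log2 fold changes of −3.03 and −2.53, also called relative to the median gene. RBFOX3, the gene called higher (0.53), was no longer called without any of epithelial replicates 1 and 3 or fiber replicates 1, 2 and 3 (0.39 to 0.57).

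Of the 17 tested genes of deadenylation, 1 was called higher and 9 lower, or 4 and 2 relative to the median gene. Of the 17 of decapping and P-bodies, 10 were called lower, whereas relative to the median gene 2 were called higher and 3 lower. Of all tested entries 13.1% were called higher and 57.7% lower, or 30.2% and 29.3% relative to the median gene. TOB1, an adaptor that recruits the deadenylase complex, rose from 4.65 to 11.4 FPKM (log2 fold change 1.26). BTG2 (−1.52), another such adaptor, and the nuclease PARN (−1.29) fell and remained called lower relative to the median gene, whereas CNOT8 (−0.96) did not. DCP1A, an activator of decapping, fell from 32.3 to 5.27 FPKM (−2.62), and LSM14B (−1.16) and the decapping enzyme DCP2 (−1.13) fell as well, each also relative to the median gene. Of the 8 tested genes of microRNA silencing, 1 was called higher and 6 lower, or 1 and 5 relative to the median gene, with AGO2 (−1.38), AGO1 (−1.25) and TNRC6C (−1.14) called on both scales. TNRC6B, a scaffold of the same machinery, rose from 3.01 to 14.5 FPKM (2.22). Of the 8 of nonsense-mediated decay, 5 were called lower, whereas relative to the median gene 3 were called higher and 1 lower. SMG5 (−0.87) and UPF1 (−0.76) were among them and were not called relative to the median gene.

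**Figure D4:**
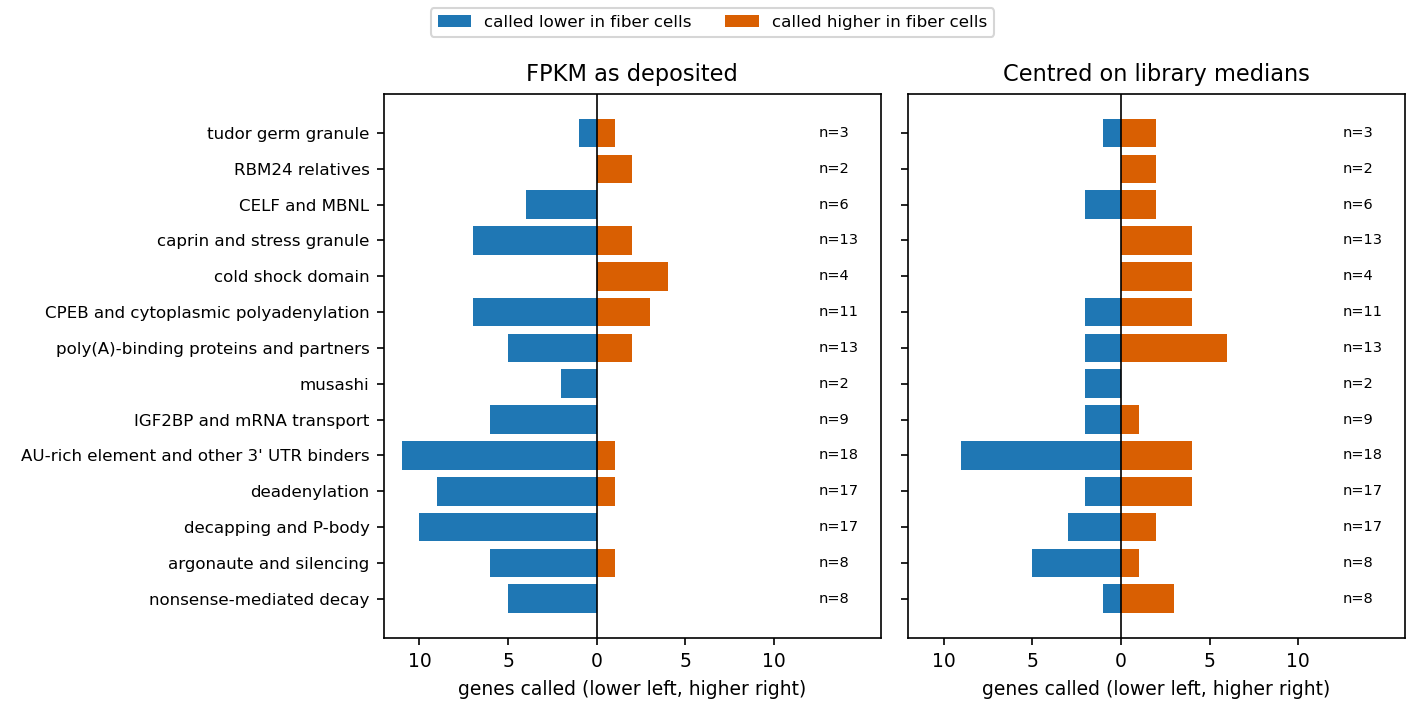
Number of tested genes called lower (blue, left) and higher (orange, right) in fiber cells in each list of related genes, with the number tested at the right, for FPKM as deposited and for values centred on library medians. The lists include the 10 regulators. The cold shock domain genes were called higher in 4 of 4 on both scales, and in most lists the lower calls shrink with centring.

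For each regulator called, the tested genes with a symbol and the smallest Euclidean distance of log2(FPKM + 0.1) over the 6 libraries were looked up. MSI2 lay closest to SLC30A7 (distance 0.12) and MDM1 (0.18). CAPRIN2 lay closest to SBSPONL (0.32) and WIPI1 (0.35), TDRD7 to YWHAH (0.40) and HDLBP (0.78), and CAPRIN1 to BNIP3L (0.43) and HDLBP (0.57). CPEB3 lay closest to SLC5A1 (0.44) and DNAH3 (0.52), and PABPC1 to ITGB1BP3 (0.46) and FTH1 (1.20). RBM24 lay closest to SBDS (0.82) and UCHL1 (0.89), and YBX1 to RPS2 (1.20) and CRYBA1 (1.31). HDLBP, itself an RNA-binding protein of the KH type, was at a mean of 166 FPKM in epithelial and 295 FPKM in fiber cells.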

How the data were processed

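Total RNA of the 6 pooled lens samples was sequenced as stranded, paired-end libraries. Per the labels and the study's methods, the authors trimmed reads with Cutadapt, mapped them with Bowtie2 and HISAT2 to the galGal6 genome, assembled transcripts with StringTie and deposited FPKM per gene. The lowest value listed is 0.0001. The deposited averages, fold changes and p- and q-values of the authors' own edgeR comparison were not used. FPKM hold no read counts, so depth is unknown and precision rests on the replicates. The summed FPKM per library were 213591 to 232329.

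Values were analysed as log2(FPKM + 0.1), which understates changes of low genes, for entries averaging 0.5 FPKM or more, by limma 3.58.1 with a mean-variance trend in R 4.3.3. The script was tested on simulated data in which few genes changed, in both directions. The simulated median gene did not shift between the cell types, so the test does not bear on the choice of scaling. Single ratios were tested by two-sided exact permutation of the libraries, adjusted by the Benjamini-Hochberg method over 8 paralog pairs. TDRD5 was below the filter, so its ratio was not computed. Genes named are the 10 regulators, their paralogs, up to 3 genes per direction in each list with the largest called change, the reported partner mRNAs and the nearest profiles. Others (IGF2BP2, CPEB2, G3BP1, TDRD1, TDRD3, TDRD6, TDRD15, LIN28A, LIN28B and cell type markers) were named after their values were seen. A few genes that the naming rule or marker lists hold are not reported here by name, though list counts and sums include them. The regulators and lists were chosen with earlier results of these data known. Alternatives changed the pseudocount (1, 0.01), the filter (none, 1 FPKM), the scaling (median centring, 75th percentile, quantile), the trend, a replicate block and the libraries used. Median centring with each library left out was added after the data were seen. No genome sequence was used, and no coordinates are given. Fold thresholds follow the study. At the same fold and adjusted p thresholds, the paper's edgeR comparison reported far fewer genes lower in fiber cells and somewhat more higher. The shares called here are therefore not those of the paper.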

Additional observations from a re-analysis of the deposited data

How the results depend on the processing

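Over the 15 alternatives, 149 of the 150 values of the 10 regulators kept their side of the thresholds, and each called gene kept its direction. The exception was the shared CELF1 value, which turned to 0.49 and was called with median centring. Leaving out 1 library in turn gave 1.26 to 1.51 for TDRD7, 1.90 to 2.43 for RBM24, 1.33 to 1.70 for CAPRIN2, 1.29 to 1.68 for YBX1, 0.98 to 1.35 for CPEB3, 0.76 to 0.88 for CAPRIN1, 0.59 to 0.74 for PABPC1 and −1.55 to −1.24 for MSI2. IGF2BP3, not called under any of them, was at 0.03 with division by the 75th percentile. With centring and 1 library left out, CELF1 was at 0.48, 0.48 and 0.50 without epithelial replicates 1, 2 and 3 and 0.56, 0.49 and 0.44 without fiber replicates 1, 2 and 3, and IGF2BP3 at 0.26 to 0.43, where it was called without epithelial replicate 2 (0.43) and without fiber replicate 1 (0.42).

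Counts of all genes called higher were 3263 with median centring, 2131 with the 75th percentile and 2884 with quantile normalization, beside 1415, and those called lower 3167 with median centring and 3228 with quantile normalization, beside 6240. Among related genes other than the 10, these counts were 31, 21 and 23 higher, beside 10, and 30 and 38 lower, beside 72. Signs turned for CPEB4 (0.46) and PABPC4 (0.0893) with median centring and for PABPC4 (0.20) and DNASE2B (0.16) with quantile normalization. Of 36 lost calls of other named genes, 26 came from these 3 scalings. With quantile normalization these included CELF5 (−0.34), PABPC1L (−0.13), DCP2 (−0.30) and CRYBB3 (0.36), and without the filter UBAP2 (adjusted p = 0.0701).

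The paper describes pools of lenses that were each microdissected into both cell types, so an epithelial and a fiber library may share a pool. The replicate numbers were not taken as pairs, since no source says that same-numbered libraries share a pool. Neither the main fit nor the permutation tests used pairs. Same-numbered libraries correlated at 0.086, 0.066 and 0.067 in their deviations from the group means, each below 0.1 and each higher than with any other number. With a replicate block 1436 genes were called higher and 6268 lower, and no call of the 10 changed. The unknown depth limits what can be said of genes near the floor.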
